A study of Mus musculus with 10 samples.

Results

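The insulin receptor signalling genes of mouse hepatocytes were followed over 4 times of day and along the liver lobule. The 7 genes were chosen by name, as the entries insr, irs1, irs2, foxo1, foxo3, pik3r1 and akt2, among 14812 gene entries in the deposited tables, and all 7 were found. Single hepatocytes, the main cells of the liver parenchyma, had been isolated by collagenase perfusion and Percoll purification and sequenced with the 10x Chromium 3' kit, version 2. The mice were C57BL/6 males, 3 months old, with regular chow always available, and all of them were given ketamine-HCl and Xylszine-Hcl (spelled as in the labels) before the liver was taken. Times are given as zeitgeber time (ZT), the hours since lights on, by convention. There were 3 libraries at ZT0 (A, B and C), 2 at ZT6 (A and B), 3 at ZT12 (A, B and C) and 2 at ZT18 (A and B). Neither the number of mice behind a library nor whether libraries came from separate mice is given, so a p-value here measures the spread between libraries only.

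Insulin binds its receptor, a tyrosine kinase encoded by Insr, which phosphorylates the adaptor proteins encoded by Irs1 and Irs2. The adaptors recruit phosphoinositide 3-kinase, whose main regulatory subunit comes from Pik3r1, and its lipid product activates AKT, of which Akt2 encodes the form best known for metabolic control in liver. Active AKT phosphorylates the transcription factors FOXO1 and FOXO3 and keeps them out of the nucleus, where they otherwise drive genes of glucose output. Mice eat mostly in the dark, so insulin and fasting signals alternate over the day, and blood crosses the lobule from the portal side to the central vein, so nutrient and hormone supply differ along it.

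By symbol in GENCODE M21 (GRCm38), each of the 7 is a protein-coding gene. Insr lies at chr8:3122061-3279617 and Irs2 at chr8:10984681-11008458, both on the minus strand. Irs1 lies at chr1:82233101-82291416, Foxo3 at chr10:42181841-42276755 and Pik3r1 at chr13:101680563-101768217, also on the minus strand. Foxo1 lies at chr3:52268336-52353221 and Akt2 at chr7:27591552-27640826, on the plus strand. The counts are per gene, so they do not tell which transcript or exon a molecule came from.

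Upstream sequence (RefSeq, GRCm38.p6) could be matched for 6 of the 7. The pieces upstream of Foxo1 and Foxo3 are shown because these transcripts rose together at ZT12, and those of Irs1 and Irs2 because the same letters recur in both. Each is written 5′ to 3′ on the gene's own strand and ends just before the RefSeq or the GENCODE start, whichever is further upstream. The pieces are chr3:52268087-52268335 for Foxo1, chr10:42276756-42276945 for Foxo3, chr1:82291440-82291689 for Irs1 and chr8:11008930-11009179 for Irs2. For Irs1 and Irs2 this is the RefSeq start, so their pieces do not adjoin the GENCODE positions given above. Capitals mark matches, on either strand, to CACGTG (the E-box bound by clock and other basic helix-loop-helix factors) and to TGTTTTG (a form of the insulin response sequence that FOXO proteins bind).
Foxo1: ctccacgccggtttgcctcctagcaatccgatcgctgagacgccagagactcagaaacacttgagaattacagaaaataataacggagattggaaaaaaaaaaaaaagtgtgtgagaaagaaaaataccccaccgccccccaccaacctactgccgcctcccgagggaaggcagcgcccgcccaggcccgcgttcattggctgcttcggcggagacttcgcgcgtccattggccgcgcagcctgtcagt
Foxo3: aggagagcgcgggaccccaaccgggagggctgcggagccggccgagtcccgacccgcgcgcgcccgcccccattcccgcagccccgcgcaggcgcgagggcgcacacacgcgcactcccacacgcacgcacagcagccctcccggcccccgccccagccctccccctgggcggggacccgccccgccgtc
Irs1: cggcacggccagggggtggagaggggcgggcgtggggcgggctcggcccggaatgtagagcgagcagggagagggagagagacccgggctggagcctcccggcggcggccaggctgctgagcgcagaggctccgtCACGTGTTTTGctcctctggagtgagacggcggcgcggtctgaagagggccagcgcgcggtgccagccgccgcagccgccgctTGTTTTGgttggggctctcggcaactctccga
Irs2: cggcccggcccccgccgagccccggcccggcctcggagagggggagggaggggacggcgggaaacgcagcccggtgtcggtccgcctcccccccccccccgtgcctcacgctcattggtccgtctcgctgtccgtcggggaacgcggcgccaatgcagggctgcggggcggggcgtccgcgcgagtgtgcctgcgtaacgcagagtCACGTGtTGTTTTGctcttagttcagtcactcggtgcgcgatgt
Irs1 held CACGTG from position -115 and TGTTTTG from -111 and -32, counted from the RefSeq start, and the first pair share 2 letters. Irs2 held CACGTG from position -44 and TGTTTTG from -37, so in each adaptor gene the pair stand side by side. Among 32851 RefSeq windows of 250 bases before to 50 after a start, 7.15% held CACGTG and 6.28% held TGTTTTG. Neither was found in the Foxo1 and Foxo3 windows, and no window of the 6 genes held TTACGTAA (the D-box of the PAR bZIP clock factors, in 0.119% of windows) or TGTTTAC (the FOXO element, in 3.65%). A match or its absence describes these letters only.

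The 10 libraries held 710 to 2860 cells and 1454623 to 7144803 UMIs (distinct tagged molecules), 18378 cells in all, and levels are given in CPM, that is UMIs scaled to an equal total in every library. Over all cells the 7 genes had 688 (Irs1) to 3633 (Pik3r1) UMIs, and a library's count of a member was 21 to 626, so counting error is largest for Irs1. The time labels were checked on Arntl, Nr1d1, Dbp, Per3 and Tef, core clock and clock output genes, and all 5 had a 24-h rhythm (edgeR adjusted p at most 9.14e-05). The defining hepatocyte markers summed to 36205 to 69581 CPM. Markers of other liver cells were near 0: 7 endothelial genes summed to 3.44 to 16.7 CPM, 7 macrophage genes to at most 11.2, 6 stellate genes to at most 10.5 and 5 lymphocyte genes to at most 0.314, while Clec4g, Clec4f, Csf1r, Cd3e, Nkg7 and Cd79a were at 0 in all 10 libraries. The 4 cholangiocyte genes summed to 0.773 to 32.5 CPM, and 5 erythroid genes to 72.2 to 107.9 CPM at ZT0, ZT6 and ZT12 and 99.0 to 360.5 at ZT18. Sox9 alone measured 0.773 to 32.3 CPM, while Krt19, Krt7 and Epcam reached at most 0.687. Alas2 alone measured 67.4 to 106.9 CPM, while the globin genes Hba-a1, Hba-a2 and Hbb-bt were at 0 in 4, 3 and 6 libraries. Mitochondrial transcripts took 12.9% to 24.3% of UMIs at ZT12 and 15.9% to 21.5% at the other times. With mitochondrial and major urinary protein (Mup) genes left out of the counts, 461 genes had a rhythm in place of 458. Between ZT12 and ZT0, 325 genes were then called in place of 306, and no member's call changed. Whether the mitochondrial share of the cells itself had a part in the results was not tested. Cell names carry no barcode, and no cell had the same counts as a cell of another library.

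Foxo1 and Foxo3, the FOXO transcription factors at the end of the pathway, were the members whose transcripts followed the time of day, with a rise at ZT12. Foxo1 measured 24.6 (A), 30.5 (B) and 29.9 (C) CPM at ZT0, 33.7 (A) and 30.5 (B) at ZT6, 79.7 (A), 57.9 (B) and 93.4 (C) at ZT12 and 27.3 (A) and 29.1 (B) at ZT18. The lowest ZT12 library thus lay well above the highest of the other 7, and ZT0, ZT6 and ZT18 all stayed between 24.6 and 33.7 CPM. Group means were 28.3 ± 3.23 (SD, n = 3) at ZT0, 32.1 ± 2.27 (n = 2) at ZT6, 77.0 ± 17.9 (n = 3) at ZT12 and 28.2 ± 1.24 (n = 2) at ZT18, and the ZT12 mean was 2.73 times that at ZT18. Against ZT0 the log2 fold change at ZT12 was 1.28 ± 0.19 (SE), with an adjusted p of 0.00153 (quasi-likelihood test of edgeR, adjusted after Benjamini and Hochberg over all genes, as in all edgeR values here).

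Foxo3 measured 16.2 (A), 20.5 (B) and 24.8 (C) CPM at ZT0, 29.1 (A) and 34.0 (B) at ZT6, 45.4 (A), 34.3 (B) and 55.7 (C) at ZT12 and 26.4 (A) and 25.3 (B) at ZT18. Its level stood in the order ZT12, ZT6, ZT18 and ZT0, and no neighbours in that order overlapped in CPM, although ZT12B and ZT6B nearly met. With TMM scaling, the weighted scaling of edgeR, the lowest ZT12 library was at 33.9 and the highest of the others at 34.7. Those ranges then overlapped. How many of all genes have a full order without overlap in CPM was not counted, so the order alone does not set Foxo3 apart. Foxo3 rose by 0.97 ± 0.20 (SE, log2) from ZT0 to ZT12, with an edgeR adjusted p of 0.0150, from a mean of 20.5 ± 4.29 (SD, n = 3) to 45.1 ± 10.7 (n = 3) CPM. All 3 ZT12 libraries lay above the other 7 in CPM for these 2 of the 7 members, and for 4.54% of all genes tested.

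**Figure D1:**
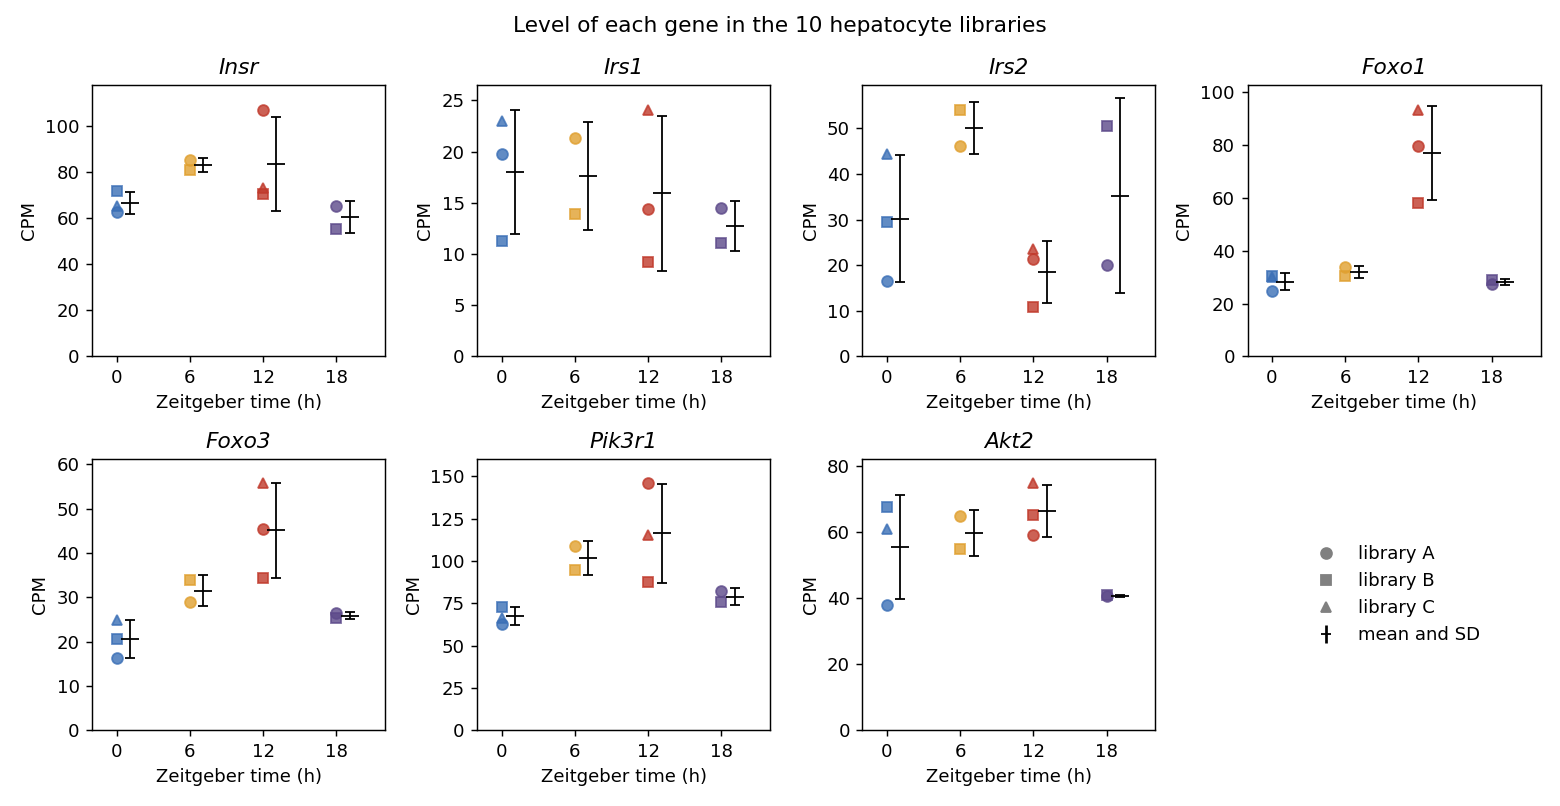
Level of each of the 7 genes (vertical axis, CPM from 0) against zeitgeber time in hours, with 1 point per library, its letter given by the symbol, and the group mean with SD as a black bar. Foxo1 sits between 24.6 and 33.7 CPM except at ZT12, where its 3 libraries reach 57.9 to 93.4, while the libraries of Irs1 overlap at every time.

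In the test for a 24-h rhythm (a cosine and a sine fitted to all 10 libraries), 2 of the 7 members passed, beside 5.14% of 8908 genes. The fitted amplitude, the log2 distance from mean to peak, was 0.64 for Foxo1 peaking at ZT 11.7 (edgeR adjusted p = 0.0256), and 0.50 for Foxo3, peaking at ZT 11.2 (edgeR adjusted p = 0.0259). The median amplitude was 0.35 over the 7 members and 0.25 over all genes tested. The Foxo1 rhythm missed the threshold without ZT12A, ZT12B or ZT12C (edgeR adjusted p 0.0725, 0.0560 and 0.0727), with amplitudes of 0.57, 0.66 and 0.54. The Foxo3 call was lost without any 1 of ZT0A, ZT0B, ZT12A, ZT12C, ZT18A or ZT18B (edgeR adjusted p 0.0569 to 0.0771), with amplitudes of 0.43 to 0.50. Times 6 h apart do not tell a 24-h wave from a shorter pulse.

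Between ZT12 and ZT0, 2 of the 7 members passed the test, both higher at ZT12, beside 3.44% of all genes in either direction and 1.74% higher at ZT12. The median log2 change was 0.18 over the members and -0.00075 over all genes tested. The letters were taken to pair these groups. A library of ZT0 and the one of ZT12 with its letter deviated together from their group means (r of 0.284 to 0.626). They also have the same 10x sample index column. Within the pairs Foxo1 went from 24.6 to 79.7, from 30.5 to 57.9 and from 29.9 to 93.4 CPM, and Foxo3 was likewise higher at ZT12 in 3 of 3 pairs. With the letter as a replicate block 504 genes were called in place of 306 and the members called were still Foxo1 and Foxo3 (log2 1.27 ± 0.18 and 0.97 ± 0.18, SE; edgeR adjusted p 0.00104 and 0.00695). The Foxo1 change passed without any single library, and that of Foxo3 did not without ZT12C (log2 0.84, edgeR adjusted p = 0.0691).

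Pik3r1, the regulatory subunit of phosphoinositide 3-kinase, measured 62.5 (A), 73.0 (B) and 66.3 (C) CPM at ZT0, 108.9 (A) and 94.7 (B) at ZT6, 145.7 (A), 87.6 (B) and 115.5 (C) at ZT12 and 82.4 (A) and 75.4 (B) at ZT18. All libraries of ZT6 and ZT12 were above all of ZT0 and ZT18 in CPM, while ZT6 and ZT12 overlapped. The share of all genes with such a split was not counted, so the split alone does not set Pik3r1 apart. Pik3r1 was higher at ZT12 than at ZT0 in 3 of 3 pairs, but its log2 change of 0.63 ± 0.20 (SE) missed the threshold (edgeR adjusted p = 0.115), as did its rhythm (amplitude 0.35, peak ZT 10.4, edgeR adjusted p = 0.131).

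Insr, the receptor, measured 62.8 (A), 71.9 (B) and 65.3 (C) CPM at ZT0, 85.5 (A) and 81.1 (B) at ZT6, 107.2 (A), 70.4 (B) and 73.3 (C) at ZT12 and 65.4 (A) and 55.5 (B) at ZT18. Its means ran from 60.4 ± 6.99 (SD, n = 2) at ZT18 to 83.6 ± 20.5 (n = 3) at ZT12, a ratio of 1.38. Library ZT12A stood apart from both other ZT12 libraries, and the log2 change from ZT0 to ZT12 was 0.18 ± 0.20 (SE) with it and -0.057 without it. Neither that change nor the rhythm passed the test (edgeR adjusted p = 0.736 and 0.514).

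Neither adaptor passed a test over time. Irs2, the adaptor whose transcript is known to fall when insulin acts on liver, measured 16.6 (A), 29.4 (B) and 44.4 (C) CPM at ZT0, 46.1 (A) and 54.1 (B) at ZT6, 21.3 (A), 10.8 (B) and 23.6 (C) at ZT12 and 20.1 (A) and 50.4 (B) at ZT18. Both ZT6 libraries were above all 3 ZT12 libraries, but the ZT0 and ZT18 libraries spanned much of the range. How many of all genes show such a gap between ZT6 and ZT12 was not counted. The log2 change from ZT0 to ZT12 was -0.91 ± 0.39 (SE, edgeR adjusted p = 0.273; lower in 2 of 3 pairs), the rhythm test gave an adjusted p of 0.570, and a test for unequal levels at the 4 times gave 0.125 (both edgeR).

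Irs1, the other adaptor, measured 19.7 (A), 11.3 (B) and 23.0 (C) CPM at ZT0, 21.3 (A) and 13.9 (B) at ZT6, 14.4 (A), 9.24 (B) and 24.1 (C) at ZT12 and 14.5 (A) and 11.0 (B) at ZT18. The 4 groups overlapped with their neighbours in the order ZT0, ZT6, ZT12 and ZT18, and at each time library B was the lowest. Its rhythm amplitude was 0.29 (edgeR adjusted p = 0.582).

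Akt2, the kinase, measured 37.9 (A), 67.6 (B) and 61.1 (C) CPM at ZT0, 64.8 (A) and 54.9 (B) at ZT6, 59.1 (A), 65.1 (B) and 74.8 (C) at ZT12 and 40.6 (A) and 41.0 (B) at ZT18. The ZT18 libraries lay below those of ZT6 and ZT12 and below ZT0B and ZT0C, but above ZT0A in CPM. How many of all genes show such a gap was not counted, so it does not set Akt2 apart. The rhythm did not pass (amplitude 0.24, edgeR adjusted p = 0.522).

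Between ZT18 and ZT6, 0 of the 7 members passed edgeR's quasi-likelihood test, beside 3.79% of all genes, and 0 did so without adjustment. The counts were also 0 by both criteria with DESeq2 and with limma-voom. All 7 log2 changes had a negative sign, from -0.48 ± 0.24 (SE) for Akt2, with an edgeR adjusted p of 0.307, to -0.11 ± 0.23 for Foxo1. Their median was -0.39 beside -0.0090 for all genes tested. The 7 changes rest on the same libraries, so their signs are not independent. Without ZT18A the change of Irs2 was 0.11. Both ZT18 libraries have a 10x sample index column that no other library has, so the time and the column cannot be told apart there.

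**Figure D2:**
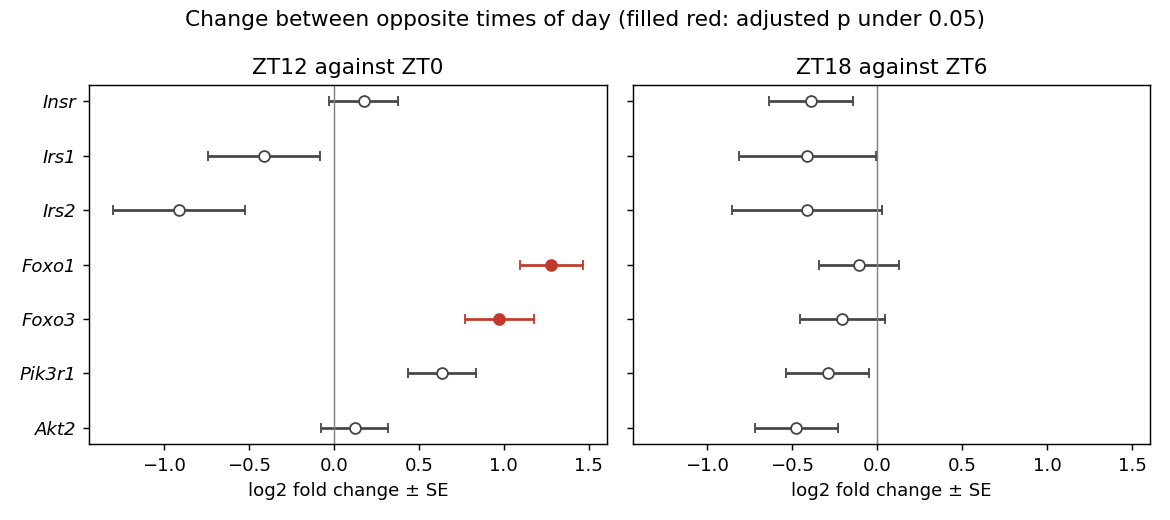
Log2 fold change of each gene with its SE (horizontal axis) from ZT0 to ZT12 (left) and from ZT6 to ZT18 (right), filled red where edgeR's adjusted p was under 0.05. Foxo1 at 1.28 and Foxo3 at 0.97 are the filled points on the left, and no point is filled on the right.

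Of 57 other genes of the pathway, in 3 lists, 48 had enough counts to be tested. Beside 5.14% of all genes tested, 1 of the 48 had a 24-h rhythm. This was Trib3, a pseudokinase that binds AKT and dampens its activity, 1 of 17 tested among the brakes on the pathway. It measured 1.81 ± 1.24 (SD, n = 3) CPM at ZT0, 10.5 ± 3.87 (n = 2) at ZT6, 4.84 ± 4.77 (n = 3) at ZT12 and 1.15 ± 0.286 (n = 2) at ZT18. Its fitted peak was at ZT 7.4 (edgeR adjusted p = 0.0188), on counts of 1 to 65 UMIs a library. None of 7 receptor and adaptor genes and none of 24 genes of the phosphoinositide 3-kinase, AKT and mTOR arms passed. An unadjusted edgeR p under 0.05 was found for 2 and 4 of them, beside 1816 of 8908 genes. The median amplitude of the 48 was 0.23, beside 0.25 over all genes tested.

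Among known transcriptional targets of insulin in liver, 6 of 23 tested had a rhythm, beside 5.14% of all genes, and the median amplitude of the 23 was 0.48 beside 0.25. Without both ZT18 libraries 3 of the targets had a rhythm. Of 11 tested genes that insulin lowers, 3 were rhythmic. Pck1, the gluconeogenic enzyme, rose from 909 ± 145 (SD, n = 3) CPM at ZT0 to 2988 ± 504 (n = 3) at ZT12, a log2 change of 1.58 ± 0.26 (SE, edgeR adjusted p = 0.00353). Ppargc1a, the coactivator that works with FOXO1 on gluconeogenic genes, rose by 1.22 ± 0.22 (SE, log2; edgeR adjusted p = 0.00612), and Insig2, a retention factor for sterol regulators, fell by 1.85 ± 0.24 (SE, log2; edgeR adjusted p = 0.000685). The fitted peaks of Pck1 and Ppargc1a were at ZT 10.2 and ZT 10.1, and that of Insig2 at ZT 23.8, while G6pc measured 407 ± 63.8 and 408 ± 128 CPM (SD, n = 3 each) at ZT0 and ZT12. From ZT0 to ZT12, 2 of the 11 passed as higher and 1 as lower, beside 155 and 151 of 8908 genes tested. Igfbp1 did not pass (log2 -0.41 ± 0.45 SE, edgeR adjusted p = 0.722).

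Of 12 genes that insulin raises, 3 were rhythmic, all enzymes or regulators of fat synthesis with later peaks: Elovl6 at ZT 15.0, Thrsp at ZT 16.0 and Fasn at ZT 19.0 (edgeR adjusted p = 0.0256, 0.0450 and 0.0150). Between ZT6 and ZT18, 4 of the 12 passed as higher at ZT18, beside 209 of 8908 genes tested. Among them were Fasn, Acly and Thrsp, with log2 changes of 1.71 ± 0.34, 1.24 ± 0.30 and 1.81 ± 0.44 (SE, edgeR adjusted p 0.0149 to 0.0371). Trib3 was lower at ZT18 by 3.09 ± 0.73 (SE, log2, edgeR adjusted p = 0.0338). Here too the time and the index column of the ZT18 libraries cannot be told apart.

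The 3 genes with the profile closest to Foxo1 over the 10 libraries, among genes of at least 20 CPM, were Slc16a12, a monocarboxylate transporter, 1110059E24Rik and Ap3m1, a subunit of a vesicle adaptor complex. Likeness was the root mean square difference of centred log2(CPM + 1), which was 0.19, 0.22 and 0.22, beside 0.64 for the Foxo1 profile against a flat line. For Foxo3 they were Gpat4, an enzyme of glycerolipid synthesis, Epb41, a membrane skeleton protein, and Hlf, a PAR bZIP clock output factor, at 0.12, 0.17 and 0.18, beside 0.48 against a flat line.

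Along the lobule, Irs1 and Akt2 passed the edgeR test as higher pericentral, and the other 5 members did not, with Pik3r1 close to the threshold. With DESeq2 0 of the 7 passed. Cells of each library were ordered by 8 periportal and 8 pericentral landmark genes, split into 3 equal parts, of which the first and last are called the pericentral and the periportal zone and were compared within libraries. The order was checked on genes outside the landmarks: Glul and Slc1a2, known for the rim of the central vein, were higher pericentral by log2 4.05 and 6.58 in size (listed as -4.05 and -6.58, periportal minus pericentral), and Sds and Cdh1 were higher periportal by 3.13 and 4.22. Of the 7 members 2 passed, a share near the 24.6% of 8907 genes in either direction. Both were higher pericentral, beside 12.7% of all genes. The median log2 difference was -0.16 over the members and -0.0061 over all genes tested.

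Irs1 stood at 21.3 ± 8.64 CPM (SD, n = 10) in pericentral zones and at 14.0 ± 4.60 (n = 10) in periportal zones, from 314 and 201 UMIs in all. The log2 difference was -0.54 ± 0.16 (SE), with an edgeR adjusted p of 0.00832. Irs1 was higher pericentral by CPM in 9 of 10 libraries, and ZT18A was the exception (16.3 against 17.1 CPM). The widest gaps were in ZT0C (39.8 against 11.4 CPM) and ZT12A (21.8 against 7.02, on 10 and 4 UMIs). Over 8 equal layers its mean fell from 23.6, 19.96 and 18.4 CPM in the 3 most pericentral to between 12.9 and 14.5 in the other 5. Without ZT0C the difference was -0.35 (edgeR adjusted p = 0.0860), with DESeq2 -0.49 (adjusted p = 0.0742), and among cells of at least 3000 UMIs -0.42 (edgeR adjusted p = 0.298).

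Akt2 measured 63.2 ± 16.5 CPM pericentral and 48.6 ± 9.92 periportal (SD, n = 10), and the log2 difference was -0.24 ± 0.08 (SE) with an edgeR adjusted p of 0.0263. It too was higher pericentral in 9 of 10 libraries, from 88.9 against 57.1 CPM in ZT0B to 38.7 against 41.8 in ZT18A, the exception. The ranges over libraries, 38.7 to 88.9 and 35.9 to 60.8 CPM, overlapped, so the difference is one within libraries. It did not pass without ZT0B (-0.19, edgeR adjusted p = 0.129) or ZT6B (-0.22, 0.0547), with cells thinned to 1000 UMIs (-0.16, 0.467), or with DESeq2 (-0.25, DESeq2 adjusted p = 0.101). The call was also lost with the order from even-numbered landmarks (-0.16, edgeR adjusted p = 0.197), without the 5% deepest cells (-0.17, 0.193) and without the filter on low counts (-0.24, 0.0503).

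Pik3r1 was close to the threshold, at 101.5 ± 31.5 CPM pericentral and 81.9 ± 30.3 periportal (SD, n = 10) and log2 -0.23 ± 0.09 (SE) with an edgeR adjusted p of 0.0579, and was higher pericentral in 8 of 10 libraries. As a linear slope over the 8 layers, which share their libraries, it passed (log2 -0.32 from the first to the last layer, edgeR adjusted p = 0.00112), with layer means from 102.6 and 109.5 CPM in the 2 most pericentral to 74.8 in the most periportal. Library ZT0C had the widest gap, 88.7 against 38.6 CPM.

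Insr measured 77.8 ± 15.7 CPM pericentral and 71.5 ± 13.3 periportal (SD, n = 10), or log2 0.0017 ± 0.07 (SE) periportal over pericentral with an edgeR adjusted p of 0.992, and its 8 layer means stayed between 67.0 and 80.7 CPM. Irs2 (-0.13 ± 0.12), Foxo1 (-0.16 ± 0.10) and Foxo3 (-0.14 ± 0.12, log2 ± SE) did not pass (edgeR adjusted p 0.255 to 0.484). CPM scale with the library total, and under that scaling the median gene stood at -0.11 (log2, periportal minus pericentral). The zone levels in CPM, and counts of libraries by CPM, thus lean to the pericentral side against the tested differences. By CPM Insr, Irs2 and Foxo3 were each higher pericentral in 7 of 10 libraries, and Foxo1 in 8. With library size alone 4 members were called, Foxo1 and Pik3r1 besides Irs1 and Akt2, and calls over all genes split 702 higher periportal and 1823 higher pericentral, in place of 1060 and 1134.

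**Figure D3:**
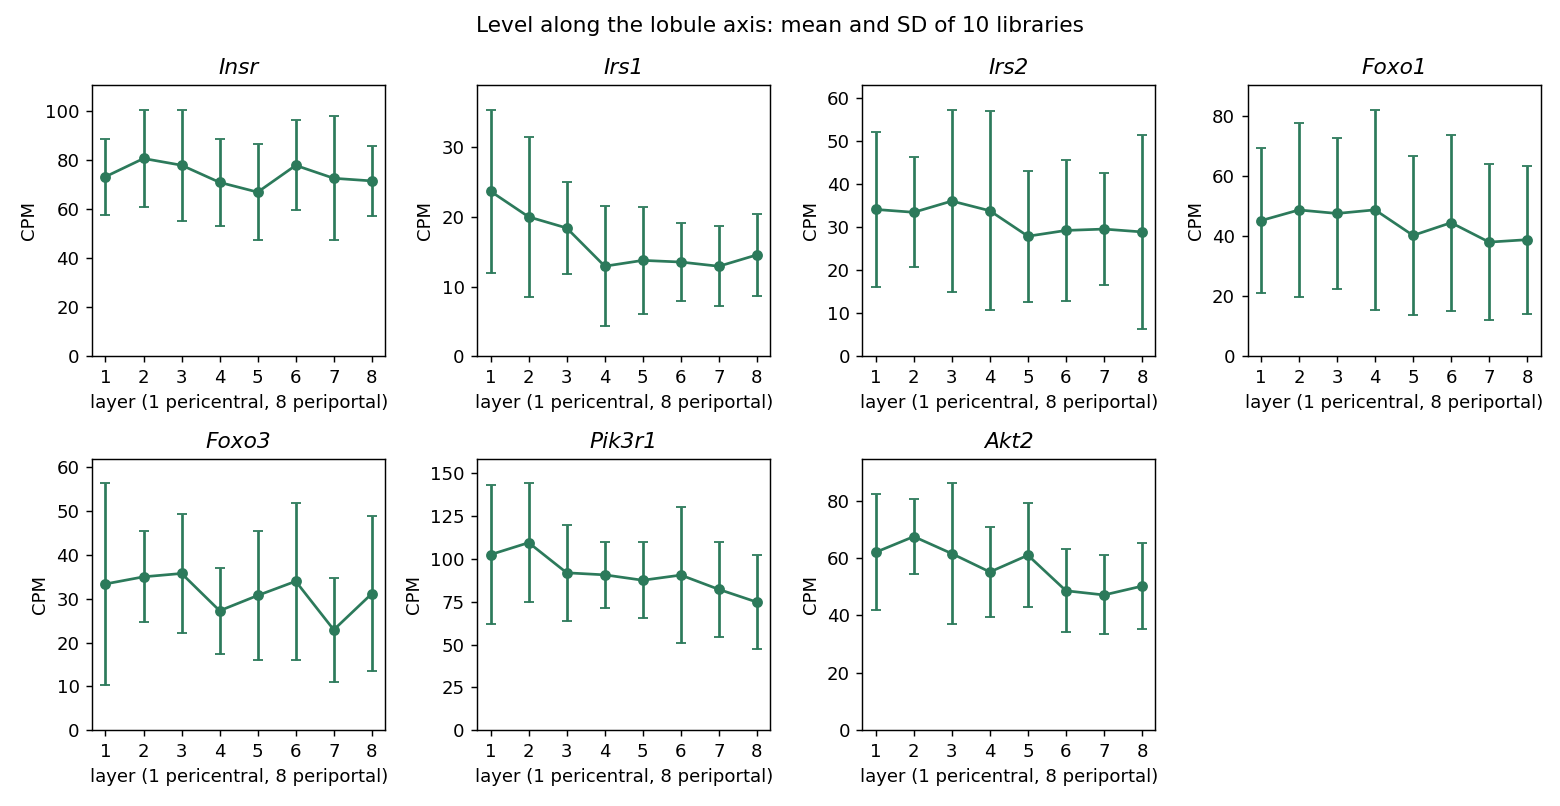
Mean level of each gene (vertical axis, CPM from 0, with SD of 10 libraries) in 8 equal layers of the ordered cells, from pericentral (1) to periportal (8). Irs1 falls from 23.6 CPM in layer 1 to 12.9 in layer 4, while Insr stays between 67.0 and 80.7.

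Other measures moved with the zone as well, and their part in these differences was not tested. Without mitochondrial and Mup genes in the counts, 2204 genes were called between zones in place of 2194. Median mitochondrial shares per library were 11.1% to 23.6% in pericentral and 13.3% to 26.2% in periportal zones, and the hepatocyte markers summed to a median of 46020 and 71253 CPM. Endothelial markers summed to a median of 13.6 CPM pericentral and 8.27 periportal, cholangiocyte markers to 2.70 and 14.4, and erythroid markers to 95.3 and 69.5. In whole libraries the cholangiocyte sum was mostly Sox9 and, outside ZT18, the erythroid sum mostly Alas2.

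**Figure D4:**
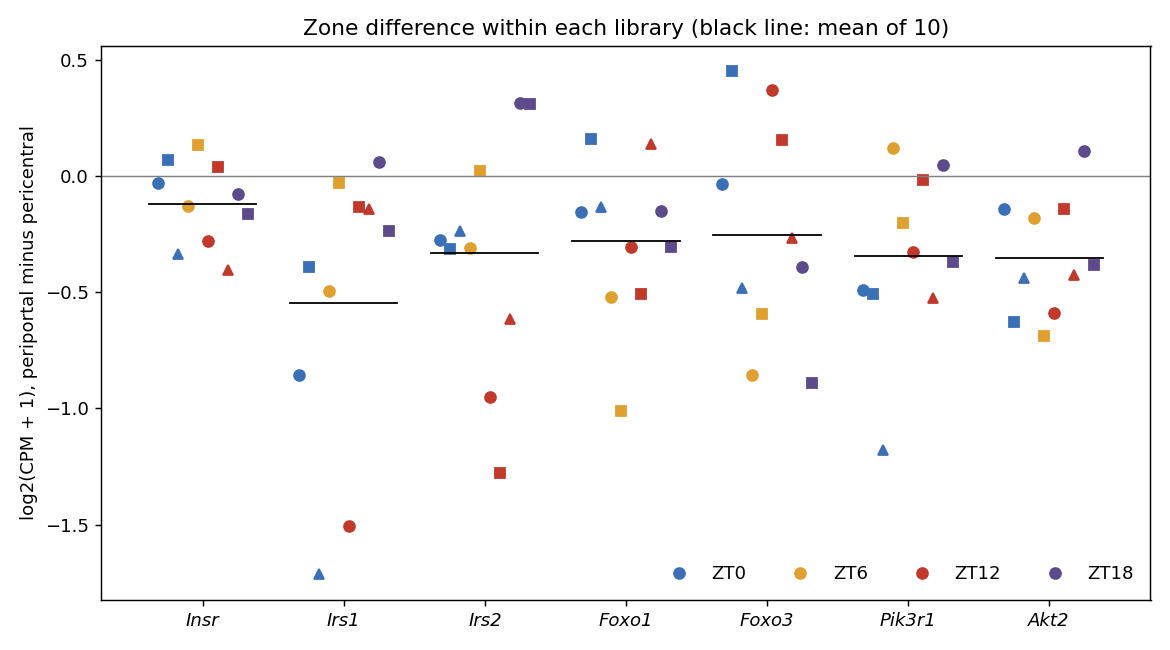
Difference between periportal and pericentral zones within each library, in log2(CPM + 1), for each gene, coloured by time and with the symbol giving the library letter (circle A, square B, triangle C), with the mean of the 10 libraries as a line. For Irs1 and Akt2, 9 of 10 points lie below 0, and for Irs2 both ZT18 points lie above 0 and all ZT0 and ZT12 points below.

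Of the other pathway genes 14 of 48 differed between zones, 6 higher periportal and 8 higher pericentral, beside 24.6% of all genes, with a median log2 difference of 0.028 beside -0.0061. Of 24 kinase and mTOR genes 5 passed, a smaller share than that of all genes, and all 5 were higher pericentral: Prkcz, an atypical protein kinase C, at log2 -0.80 ± 0.11 (SE, edgeR adjusted p = 9.94e-07), then Gsk3b, the kinase that AKT switches off to allow glycogen synthesis, at -0.32 ± 0.09, Rps6kb1, the S6 kinase, at -0.30 ± 0.10, Rheb, the activator of mTOR complex 1, at -0.29 ± 0.08, and Pde3b, the insulin-stimulated phosphodiesterase, at -0.27 ± 0.09. Both receptor and adaptor genes that passed, of 7, were higher periportal: Sh2b1, an adaptor that enhances receptor signalling, at 0.51 ± 0.14 and Phip, a protein that binds IRS1, at 0.42 ± 0.14. With DESeq2 7 of the 48 passed.

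Among the brakes 7 of 17 differed between zones, 4 higher periportal and 3 higher pericentral, beside the same 24.6% of all genes. Trib1, a pseudokinase, Ceacam1, which promotes insulin clearance, and Ptprf, a receptor phosphatase, were higher periportal by log2 0.33 ± 0.08, 0.29 ± 0.09 and 0.20 ± 0.07 (SE). Socs2, a suppressor of cytokine and growth hormone signalling, Enpp1, an inhibitor of the receptor, and Ide, the insulin-degrading enzyme, were higher pericentral at -0.68 ± 0.11, -0.61 ± 0.15 and -0.22 ± 0.08.

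Of the insulin targets 12 of 23 differed between zones, 10 of them higher periportal, beside 24.6% of all genes in either direction, and their median log2 difference was 0.14 beside -0.0061. Most of these targets measured above 20 CPM, and among genes of at least 20 CPM a larger share differed, 1667 of 4341. The lists were chosen with earlier results of these data known. Among 11 tested genes that insulin lowers 5 differed: Ppargc1a (1.73 ± 0.16), Pck1 (1.05 ± 0.07), Apoc3 (0.50 ± 0.09) and G6pc (0.28 ± 0.07, log2 ± SE) were higher periportal and Igfbp1 was higher pericentral (-0.36 ± 0.09). Among 12 that insulin raises 7 differed: 6 were higher periportal, led by Pnpla3 (1.72 ± 0.32), Acly (1.12 ± 0.12) and Acaca (0.90 ± 0.08), with Srebf1, the master regulator of fat synthesis, at 0.46 ± 0.08 and Fasn at 0.39 ± 0.09, and Me1 was higher pericentral (-0.77 ± 0.08).

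The layer profiles closest to Irs1, over 8 layers of the mean of the libraries, were those of Yme1l1, a mitochondrial protease, Arhgef19, and Sgk2, a kinase of the AKT-related SGK family, with root mean square differences of 0.066, 0.088 and 0.089 in log2(CPM + 1), beside 0.29 for Irs1 against a flat line. Those closest to Akt2 were Prorsd1, Ikbkg, the regulatory subunit of the IκB kinase, and Gm8730, at 0.047, 0.048 and 0.051, beside 0.18.

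Whether time of day and position act together was asked with a test of zone-dependent rhythm. It called 0 of the 7 members, beside 0.0337% of 8907 genes, and unadjusted p under 0.05 were 0 with edgeR, DESeq2 and limma-voom alike. The lowest edgeR adjusted p of the members was 0.795, for Pik3r1. The rise of Foxo1 at ZT12 was seen at both ends of the lobule, from 27.4 CPM at ZT0 to 80.5 at ZT12 in pericentral and from 26.9 to 70.9 in periportal zones. For Foxo3 the same means were 21.0 and 45.9 CPM pericentral and 20.2 and 47.2 periportal.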

How the data were processed

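UMI counts per gene and cell, as deposited by the authors, are whole numbers with unequal totals; Cell Ranger and the builds mm10 and hg19 are named in the submitters' processing notes without version or role, and the filter on cells is not given in the sources used here. Cells held 1048 to 10001 UMIs, with medians of 1588 to 2662 per library and 8.70% to 34.4% mitochondrial UMIs. Doublets were not called: the 5% of cells with the most UMIs were left out as an alternative. The members and lists were chosen with earlier results of these data known.

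Counts were summed per library, or per library and outer zone (of 3 equal parts of the cell order), and tested with edgeR 4.0.16 (glmQLFit, glmQLFTest; R 4.3.3), TMM normalization and a mean of at least 3 CPM, with Benjamini-Hochberg adjustment over all genes tested and a threshold of 0.05. The rhythm test has 2 degrees of freedom, the contrasts come from a model with 1 mean per time, and zones have the library as a block. The SE is the size of the log2 change over the square root of its F. Cell order is the mean z-score of log counts, scaled to 10000 UMIs, of periportal less pericentral landmarks (Cyp2f2, Ass1, Asl, Hal, Ctsc, Hsd17b13, Pigr, Ftcd against Cyp2e1, Oat, Gulo, Mgst1, Aldh1a1, Lect2, Cyp1a2, Rgn), and landmarks are left out of zone counts. Across the cells of a library, the order from every other landmark correlated with that from the rest at r of 0.683 to 0.847. The tests were tried on simulated counts with known changes.

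All members are named in every comparison, and from each list the called genes, up to the 6 with the largest change; the most alike genes are the 3 with the smallest root mean square difference. Gene positions are from GENCODE M21, where 14321 entries matched. Libraries of ZT0 and ZT12 with the same letter deviated together over 4341 genes (r of 0.284, 0.512 and 0.626) and share an index column, so their letters were taken to pair them. Libraries of one time were no copies of each other (chi-square per degree of freedom 5.76 to 68.8). Alternatives were library size alone, DESeq2 1.42.0, limma-voom (limma 3.58.1), other filters, and left-out libraries and cells. Further ones were mitochondrial and Mup genes left out, the replicate block, and other ways to cut the zones.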

Additional observations from a re-analysis of the deposited data

Results flagged for a closer look

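Over the 10 libraries, the zone difference of Pik3r1 (periportal minus pericentral, log2(CPM + 1)) was -1.18 in ZT0C, apart from the other 9, which lay between -0.53 and 0.12. Dixon's criterion was tried on each of the 7 members, and chance passes about 1 in 20 such groups. Without ZT0C the tested Pik3r1 difference was -0.15 (edgeR adjusted p = 0.225).

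The zone difference of Irs2 had opposite signs at different times. It was negative (higher pericentral) in 3 of 3 libraries at ZT0 and in 3 of 3 at ZT12, where periportal and pericentral means were 14.6 and 27.2 CPM, and positive in 2 of 2 at ZT18, with 41.0 and 32.9 CPM. At ZT6 it was positive in 1 library and negative in the other (mean -0.14). The mean log2 difference at ZT18 exceeded that at ZT0 by 0.59 and that at ZT12 by 1.26. The pairs of times were not tested by themselves. In the test of zone-dependent rhythm Irs2 had an edgeR p of 0.254 (adjusted p = 0.903). The values rest on 10 to 33 UMIs per zone at ZT12 and 20 to 74 at ZT18.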

How the results depend on the processing

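Over 563 alternative values of single members, 519 kept direction and side of the threshold, 21 fell short of it, 10 came to pass it and 13 reversed; of 851 for named list genes 749 kept both and 102 fell short. The cause of the changes below was not tested. Members with a rhythm (2) numbered 1 without both ZT18 libraries and 0 to 2 with 1 library left out (0 without ZT12A or ZT12C, 1 without ZT0A, ZT0B, ZT12B, ZT18A or ZT18B). Members differing between ZT12 and ZT0 (2) numbered 1 to 2 with 1 library left out (1 without ZT12C). The replicate block left 2, 2 and 0 members for the rhythm, for ZT12 against ZT0 and for ZT18 against ZT6, and changed no member's call. It called 749, 504 and 730 of all genes, in place of 458, 306 and 338. Same-letter libraries of the other pairs of times had r of -0.12 to 0.20. Members differing between zones (2) numbered 4 with library size alone, 0 with DESeq2, 1 each with at least 20 CPM (where Irs1 is not tested), without the 5% deepest cells, with cells thinned to 1000 UMIs and with cells of at least 3000 UMIs, and 1 to 3 with 1 library left out (1 without ZT0B, ZT0C or ZT6B). Other pathway genes with a rhythm (1) numbered 0 with at least 20 CPM and without both ZT18 libraries, 3 without a filter and 3 in the test among the 4 times, and 0 to 1 with 1 library left out (0 without ZT6A or ZT18A). Other pathway genes differing between zones (14) numbered 7 with DESeq2, 7 with thinned cells, 5 with cells of at least 3000 UMIs, and 9 to 14 with 1 library left out (9 without ZT6A). Rhythmic insulin targets (6) numbered 10 with DESeq2 and 3 without both ZT18 libraries. Among values that reversed, none past the threshold, the Akt2 amplitude was 0.067 with its peak moved without both ZT18 libraries, and the zone difference of Insr was -0.099 with library size alone, -0.0018 with DESeq2, -0.046 without the deepest cells and -0.14 with thinned cells, where that of Irs2 was 0.013; that of Foxo3 was 0.050 with cells of at least 3000 UMIs. With 1 library left out, the change from ZT0 to ZT12 ranged from -0.057 to 0.29 for Insr and from -0.047 to 0.29 for Akt2, that from ZT6 to ZT18 from -1.26 to 0.11 for Irs2 (the last without ZT18A), and the zone difference of Insr from -0.026 to 0.028. Over all genes, rhythm calls (458) were 792 with DESeq2, 710 without a filter, 283 with at least 20 CPM, 231 without both ZT18 libraries and 228 to 465 with 1 library left out (lowest without ZT18A); ZT12 against ZT0 (306) 588 with an index column block and 469 without a filter; ZT18 against ZT6 (338) 595 without a filter, 199 with at least 20 CPM and 50 to 494 with 1 library left out (50 to 80 without a ZT6 or ZT18 library); zone calls (2194) 1358 with thinned cells and 1218 with cells of at least 3000 UMIs; and genes with a zone-dependent rhythm (3) 0 to 42. Library size alone moved the median gene by 0.13 for ZT12 against ZT0, with calls split 202 higher and 101 lower in place of 155 and 151, and by -0.11 for the zones, with 702 higher and 1823 lower periportal in place of 1060 and 1134. Depth limits Irs1 most, with 21 to 136 UMIs per library.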

Other observations

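Several genes of the pathway were nearly absent from these hepatocytes. Igf1r, the receptor most like Insr, had 4 UMIs in 18378 cells (0.075 CPM on average, at most 0.269 in a library). Socs1 had 20 UMIs, Sh2b2 45, Pik3r3 46, and Grb10 and Phlpp2 115 each. Pdk4, the kinase that restrains pyruvate oxidation in fasting, had 81 UMIs and reached at most 5.91 CPM. These 7 were below the filter on low counts and entered no test.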
